A study of Homo sapiens with 6 samples.

Results

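The mRNAs of 2 stathmin genes (STMN1 and STMN3), 3 alpha-tubulin genes (TUBA1A, TUBA1B and TUBA1C) and 5 beta-tubulin genes (TUBB, TUBB2A, TUBB3, TUBB4B and TUBB6) were measured by RNA-seq in HCT116 cells, a human colorectal carcinoma line. They are 10 of the 27942 genes in the count table and were selected by gene symbol with their counts in these libraries known, so their differences between the groups are given as a description and without a test. All 10 were among the 13727 genes that passed the filter on low counts. Untreated cells (NT, 3 libraries) were compared with cells exposed to 0.5 µM oxaliplatin, a platinum drug that crosslinks DNA, for 24 h (OXA, 3 libraries). Both groups were the unmodified line, grown in RPMI medium with serum. The labels list penicillin/streptomycin in the medium, whereas the study's methods state that antibiotics were left out, and which applied to these libraries is not settled here. The study examined how this line responds to the drug. The labels number the libraries 1 to 3 in each group and do not say that they came from separate cultures, so the spread between libraries may be technical.

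Microtubules are polymers of heterodimers of alpha- and beta-tubulin, and several genes encode near-identical copies (isotypes) of each subunit. Stathmin, the product of STMN1, binds free tubulin dimers and promotes the shrinkage of microtubules, and mitotic kinases switch it off by phosphorylation when the spindle is built. Cells also tune the stability of tubulin mRNAs to the pool of free dimers: the factor TTC5 recognises the first residues of a nascent tubulin chain at the ribosome and, through SCAPER, brings the CCR4-NOT deadenylase to the mRNA.

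The first 30 coding bases are shown because they encode the residues that TTC5 reads. Capitals mark the first 4 codons, which read Met-Arg-Glu-Cys in the alpha-tubulins and Met-Arg-Glu-Ile in the beta-tubulins. The sequences were read from GRCh38 with GENCODE models, 5′ to 3′.
TUBA1A, TUBA1B and TUBA1C: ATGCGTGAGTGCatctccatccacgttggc
TUBB: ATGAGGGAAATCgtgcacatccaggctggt
TUBB2A: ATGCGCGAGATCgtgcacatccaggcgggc
TUBB3: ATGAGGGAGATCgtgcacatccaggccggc
TUBB4B: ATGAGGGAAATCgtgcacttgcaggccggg
TUBB6: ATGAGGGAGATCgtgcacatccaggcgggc
STMN1: ATGGCTTCTTCTgatatccaggtgaaagaa
STMN3: ATGGCCAGCACCatttccgcctacaaggag
The 3 alpha-tubulin starts are the same in all 30 bases, and both stathmin genes begin with other codons. The coding sequences of the alpha-tubulin genes were 96.3% to 97.2% identical to each other, those of the beta-tubulin genes 81.3% to 88.8%, and those of STMN1 and STMN3 68.9%. Reads can therefore fall on more than 1 of these genes. Of the 100-base windows of the GENCODE canonical transcript, 37.2% for TUBA1B, 21.2% for TUBA1A and 12.3% for TUBA1C also occurred in a transcript of another gene, against 5.42% for TUBB, 3.01% for TUBB4B and 0% for TUBB6, STMN1 and STMN3. The share was 55.6% for TUBB2A, mostly with TUBB2B, which had 32 to 69 raw counts a library. It was 92.5% for TUBB3, all of it with an overlapping locus, AC092143.1, which had 0 to 7 raw counts. How the authors' counting split such reads is not given in the sources used here, so the split between these genes is uncertain.

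The library totals lay between 32979521 and 40967880 counts. The epithelial markers EPCAM, CDH1, KRT8, KRT18 and VIL1 were all detected, with summed levels of 70865 to 95445 normalized counts in NT and 100818 to 113095 in OXA. KRT8 and KRT18 were higher in OXA, while CDH1 (3746 to 4350 in NT, 3123 to 3879 in OXA) and EPCAM (9081 to 11071 and 9214 to 10616) were not. The leukocyte markers PTPRC, CD3E and CD14 had at most 3 raw counts in any library and DCN of the fibroblast markers had 0. Summed endothelial markers were at 21.0 to 27.0 normalized counts in NT and 17.4 to 28.5 in OXA, and summed fibroblast markers, almost all COL1A1, at 116 to 291 and 176 to 287. Of 7 neuronal markers, DCX, GAP43 and ELAVL3 had at most 1 raw count and RBFOX3 at most 8. SYP was at 30.1 to 61.3 normalized counts in NT and 53.5 to 80.1 in OXA. The microtubule-binding MAPT (2003 to 2772 in NT, 2176 to 2450 in OXA) and MAP2 (776 to 959.8 and 503 to 642) were expressed. MAP2 was lower in every OXA library than in any NT library. The sum of the 7 markers was 2985 to 3757 in NT and 2761 to 3068 in OXA. Whether these shifts had a part in the results was not tested. Bulk RNA does not tell fewer cells with an mRNA from less mRNA per cell.

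TUBB, TUBA1B, STMN1 and TUBA1A mRNAs were lower in every OXA library than in any NT library, at 0.676, 0.795, 0.699 and 0.841 times the NT level. The other 6 genes had overlapping groups. Values are counts normalized by TMM, which scales libraries to a common size, and the log2 fold changes come from an edgeR fit, each with its standard error (SE). STMN1 (ENSG00000117632, chr1:25884181-25906991, minus strand) had 21778, 18108 and 18477 normalized counts untreated, against 14175, 12572 and 14022 with oxaliplatin. The lowest NT library lay above the highest OXA library, and the log2 fold change was -0.52 (SE 0.10). The means were 19454 ± 2021 and 13590 ± 884 (SD, n = 3). For STMN3 (ENSG00000197457, chr20:63639705-63657682, minus strand), a stathmin relative best known from neurons, the values were 1852, 4087 and 3916 in NT and 3159, 4527 and 3775 in OXA. Here the groups overlapped, NT library 1 lay well below the other 5 libraries, and the fit gave a log2 fold change of 0.22 (SE 0.28). Among the 10 genes, STMN3 had the highest log2 fold change and TUBB the lowest.

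**Figure D1:**
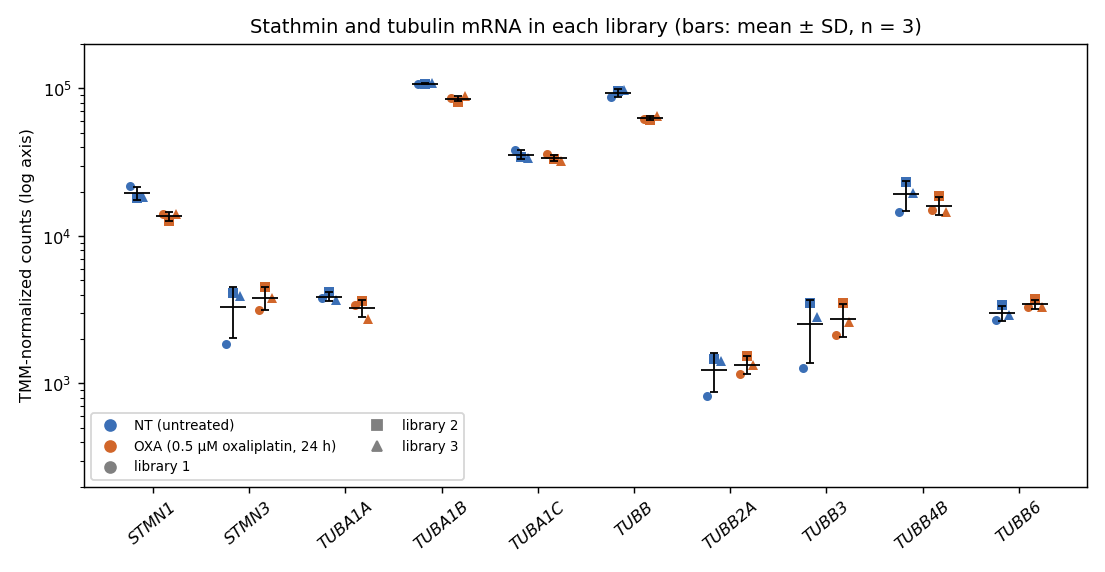
TMM-normalized counts (log axis) of each stathmin and tubulin gene in the 3 NT and 3 OXA libraries, with a marker for each library number and bars for the mean ± SD (n = 3). STMN1, TUBA1A, TUBA1B and TUBB had all 3 OXA libraries below all 3 NT libraries, while NT library 1 was the lowest NT library of STMN3, TUBB2A, TUBB3, TUBB4B, TUBB6 and TUBB.

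Among the beta-tubulins, TUBB (ENSG00000196230, chr6:30717435-30725538, plus strand), the main isotype of dividing cells, had 87066, 95691 and 97324 normalized counts untreated, against 62481, 61424 and 65411 with oxaliplatin. All OXA libraries were about equally low, and the means of 93360.2 ± 5512 and 63105 ± 2066 (SD, n = 3) gave a log2 fold change of -0.57 (SE 0.087). TUBB4B (ENSG00000188229, chr9:137241287-137243707, plus strand), a widely expressed isotype of cilia and dividing cells, had 14611, 23302 and 19440.2 in NT and 15036, 18581 and 14572 in OXA, with overlapping groups and a log2 fold change of -0.25 (SE 0.18), which was -0.41 without NT library 1 and -0.11 without NT library 2. TUBB6 (ENSG00000176014, chr18:12307669-12344320, plus strand), the class V beta-tubulin, had 2709, 3396 and 2899 in NT and 3317, 3728 and 3277 in OXA. Each OXA library was above the NT library of the same number, although NT library 2 lay above OXA libraries 1 and 3, and the log2 fold change was 0.20 (SE 0.11). TUBB2A (ENSG00000137267, chr6:3153497-3157544, minus strand) had 820, 1471 and 1418 in NT and 1162, 1529 and 1336 in OXA, and TUBB3 (ENSG00000258947, chr16:89921392-89938761, plus strand), a marker of neurons that some tumours also express, had 1265, 3508 and 2820 in NT and 2118, 3492 and 2621 in OXA. Both had overlapping groups, with a log2 fold change of 0.12 in each and SEs of 0.22 and 0.35.

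The alpha-tubulin genes lie close together on chromosome 12. TUBA1B (ENSG00000123416, chr12:49127782-49131397, minus strand), the main alpha-tubulin of most dividing cells, had 106783, 106743 and 108532 normalized counts untreated, against 86428, 81162 and 88462 with oxaliplatin. Its NT libraries differed by little (mean 107353 ± 1022, SD, n = 3), the OXA mean was 85350.4 ± 3767, and the log2 fold change was -0.33 (SE 0.082). TUBA1A (ENSG00000167552, chr12:49184686-49189080, minus strand), best known from the developing brain, had 3774, 4170.5 and 3651 in NT and 3394, 3611 and 2751 in OXA. The groups were separate by a narrow gap between NT library 3 and OXA library 2 (log2 fold change -0.25, SE 0.12). TUBA1C (ENSG00000167553, chr12:49188736-49274600, plus strand), a further isotype of dividing cells, had 38334, 34481 and 33927 in NT and 35716, 33388 and 32354 in OXA, with overlapping groups and a log2 fold change of -0.073 (SE 0.090). TUBA1A and TUBA1C overlap at their ends on opposite strands, and the strand setting of the counting is not given in the sources used here.

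At an adjusted p under 0.05 (edgeR quasi-likelihood test with Benjamini-Hochberg adjustment), the call took in 2 of the 10 genes as lower, STMN1 and TUBB, and 0 as higher, beside 2.29% of all tested genes called lower and 2.78% called higher. DESeq2 called 3 lower (STMN1, TUBA1B and TUBB) and limma-voom 2, and each called 0 higher. Over the 19353 genes with a count, DESeq2 called 571 lower and 604 higher. Of the 13727 genes tested, limma-voom called 289 lower and 375 higher. TUBA1B was also called lower with upper-quartile factors and with the stricter CPM filter. This contrast had been known when the genes were selected, so nothing is read from the counts. Over all genes the call took in 381 as higher and 315 as lower, so that 54.7% of the calls were higher, against 41.4% with upper-quartile factors (348 and 493) and 43.1% with the stricter CPM filter (363 and 479). When the replicate number entered the fit as a block, the calls were 4 lower (STMN1, TUBA1A, TUBA1B and TUBB) and 1 higher (TUBB6), beside 10.9% lower and 12.1% higher of all genes. Separate groups, with all OXA libraries below all NT libraries, were seen for 4 of the 10 (STMN1, TUBA1A, TUBA1B and TUBB) and the opposite order for 0, beside 14.4% and 14.5% of all genes. The median log2 fold change was -0.16 over the 10 genes and 0.023 over all genes tested. No member passed a 1.5-fold change together with the call. Leaving out single libraries changed the calls: STMN1 was called without NT library 1 but not without any of the other 5, TUBB was called without NT library 1 or 2 but not without NT library 3 or any OXA library, and TUBA1B was called without NT library 1.

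**Figure D2:**
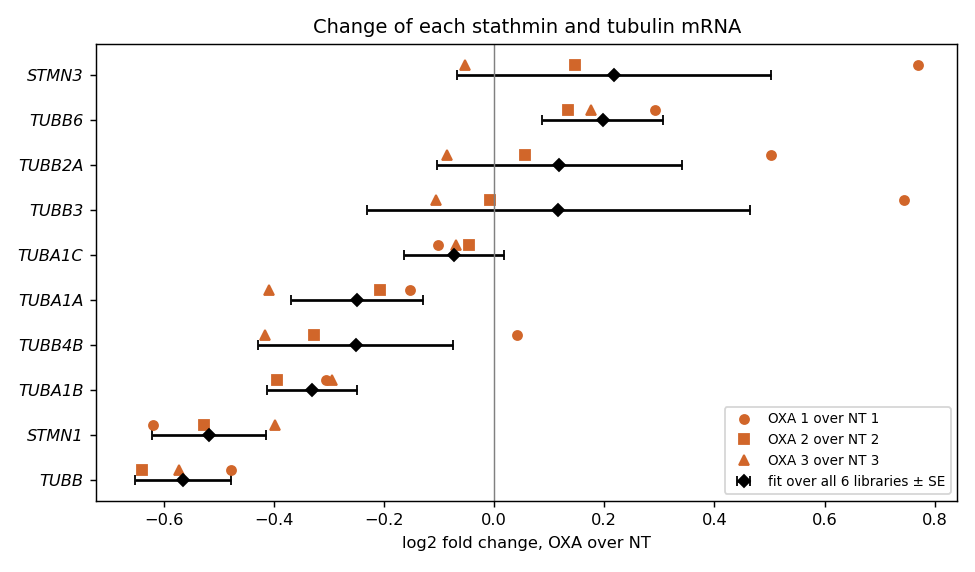
Log2 fold change of OXA over NT for each gene, with its SE, and the log2 ratio of each pair of libraries with the same number. TUBB (-0.57) and STMN1 (-0.52) lie farthest to the left, and the pairs of STMN3, TUBB2A and TUBB3 spread on both sides of 0.

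Between libraries of the same number, the log2 ratio of OXA to NT was -0.62, -0.53 and -0.40 for STMN1 and -0.48, -0.64 and -0.57 for TUBB. It was -0.31, -0.40 and -0.29 for TUBA1B and 0.29, 0.13 and 0.18 for TUBB6. These 4 genes had the same sign in all 3 pairs, as did TUBA1A and TUBA1C, which were lower in each. In contrast, STMN3 had ratios of 0.77, 0.15 and -0.053 and TUBB3 had 0.74, -0.0067 and -0.11, so that the first pair alone stood well above 0. TUBB2A had 0.50, 0.056 and -0.087 in the same pairs, and TUBB4B 0.041, -0.33 and -0.42. How many of all tested genes had the same sign in all 3 pairs was not counted, so nothing is read from these signs.

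The order of the levels per kb of canonical transcript in NT was led by TUBA1B at 65982 ± 614 and TUBB at 37121 ± 2184 normalized counts per kb (SD, n = 3). STMN1 (13482 ± 1403), TUBA1C (12604 ± 853) and TUBB4B (12231 ± 2785) followed and did not differ beyond their spread. TUBA1A was at 2312 ± 162, above TUBB6 (1597 ± 189), TUBB3 (1484 ± 674) and STMN3 (1461 ± 553), which again overlapped each other. TUBB2A was the lowest member at 765 ± 224, and its NT libraries overlapped those of TUBB3 and STMN3.

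Summed per kb over 10 alpha-tubulin genes, the alpha-tubulin mRNA was 82187 ± 469 normalized counts per kb in NT and 67547 ± 2150 in OXA (SD, n = 3), a ratio of 0.822. Over 9 beta-tubulin genes the sum was 54162 ± 5895 in NT and 40537 ± 1625 in OXA, a ratio of 0.748. TUBA1B made up 80.3% ± 0.89 of the alpha-tubulin mRNA in NT and 77.6% ± 1.44 in OXA, and TUBA1C 15.3% ± 0.96 and 17.7% ± 0.89. TUBB made up 68.8% ± 4.11 of the beta-tubulin mRNA in NT and 62.0% ± 3.75 in OXA. TUBB6 was 3.03%, 3.07% and 2.75% of the beta-tubulin mRNA in NT and 4.51%, 4.69% and 4.34% in OXA. TUBB2A was 1.07%, 1.54% and 1.57% of it in NT and 1.84%, 2.24% and 2.06% in OXA. The TUBA1C share of the alpha-tubulin mRNA was 16.4%, 14.9% and 14.6% in NT and 18.3%, 18.2% and 16.7% in OXA. In TUBB6, TUBB2A and TUBA1C the groups, which overlapped in level, thus did not overlap in share. The ratio of alpha- to beta-tubulin mRNA was 1.53 ± 0.18 in NT and 1.67 ± 0.12 in OXA, and that of all tubulin mRNA to STMN1 mRNA was 10.2 ± 1.39 and 11.5 ± 0.71. These sums rest on the same counts as the members and carry no test, and a share moves with the other genes of its sum.

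**Figure D3:**
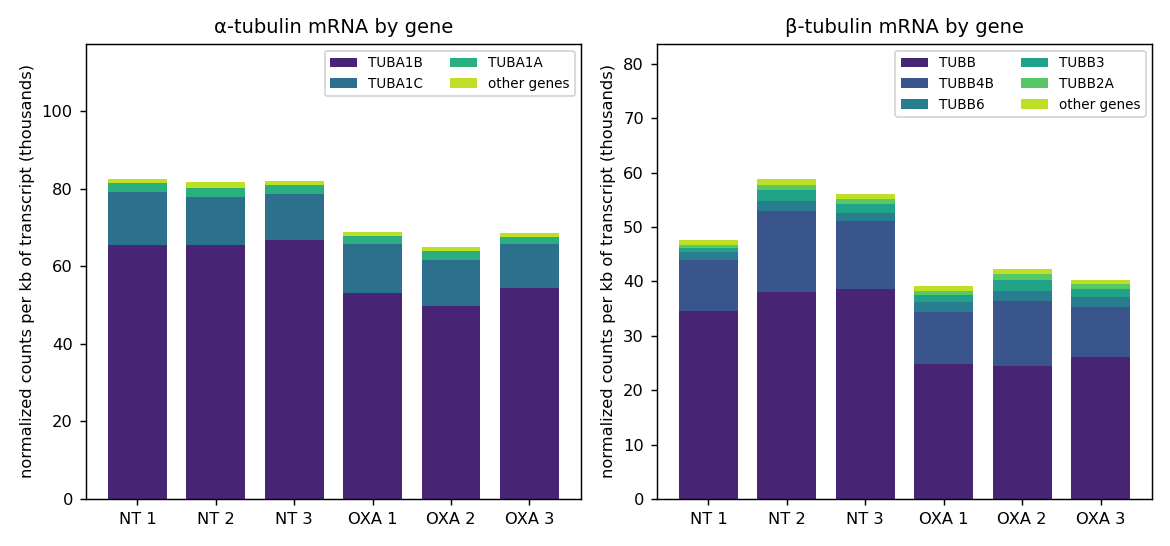
Normalized counts per kb of transcript (axis in units of 1000) summed over the alpha-tubulin genes and over the beta-tubulin genes in each library, stacked by gene. The alpha-tubulin sum was 82187 in NT and 67547 in OXA on average, and the beta-tubulin sum 54162 and 40537, with TUBA1B and TUBB as the largest layers.

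Several members with GC-rich transcripts were low in NT library 1. Against the mean of NT libraries 2 and 3, the log2 difference of NT library 1 was -1.31 for TUBB3 (GC content 62.2%), -1.11 for STMN3 (63.1%), -0.82 for TUBB2A (59.3%) and -0.54 for TUBB4B (59.3%). STMN1, the member of lowest GC content (43.1%), was higher in that library, with a difference of 0.25. TUBA1B (52.4%), TUBA1A (51.3%) and TUBB (51.1%) differed by -0.011, -0.048 and -0.15. The same order held across all genes with a known GC content: the median difference of NT library 1 was 0.21 under a GC content of 45% (5042 genes) and -0.91 at 60% or more (2159 genes), and that of OXA library 1 was 0.11 and -0.33. The median log2 fold change of OXA over NT in these bins was -0.055 and 0.18. Without NT library 1, the log2 fold change became -0.067 for STMN3, -0.21 for TUBB3 and -0.11 for TUBB2A. With the libraries numbered 1 left out of both groups, an alternative chosen after the data had been seen, STMN3 was at 0.053, TUBB3 at -0.050 and TUBB2A at -0.013. STMN1 was then at -0.46 and TUBB at -0.61, and TUBB was the 1 member still called lower.

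**Figure D4:**
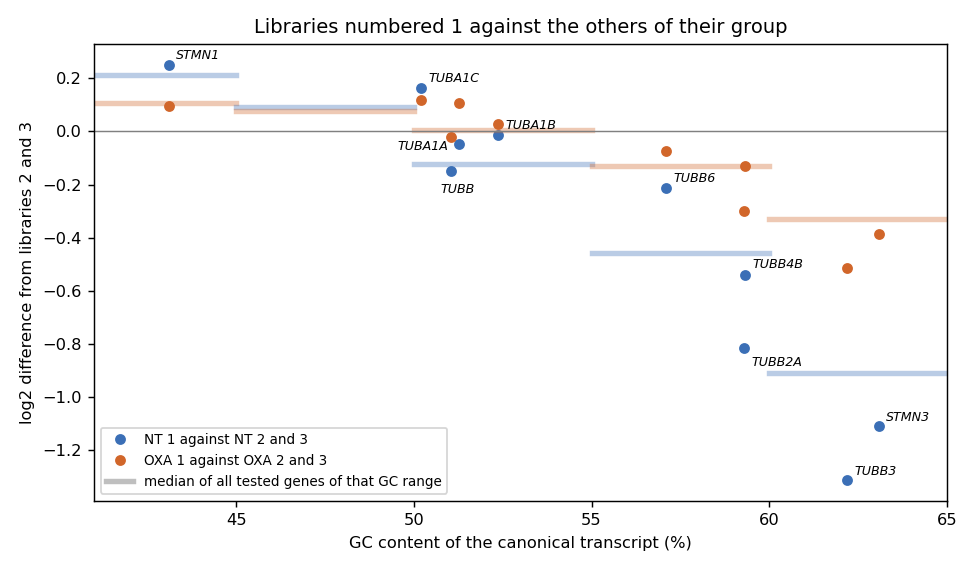
Log2 difference of the libraries numbered 1 from the mean of libraries 2 and 3 of the same group, against the GC content (%) of the canonical transcript, for each member and as the median over all genes in 5 bins of GC content. In NT library 1, TUBB3 (-1.31) and STMN3 (-1.11) lie below the median of the most GC-rich genes (-0.91), and STMN1 (0.25) lies close to that of the most GC-poor genes (0.21).

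Promoter windows of 4 members are shown because these genes are abundant, the first 3 with separate groups and TUBA1C with overlapping ones. Each runs from 250 bases before to 50 bases after the RefSeq start (GRCh38.p14), 5′ to 3′ on the gene's strand. Capitals mark matches on either strand to the CCAAT box bound by NF-Y (CCAAT), the CHR element of cell cycle genes (TTTGAA) and 4 forms of the E2F site (TTTGGCGC, TTTCCCGC, TTTGCCGC and TTTCGCGC).
STMN1, chr1:25906370-25906669, minus strand: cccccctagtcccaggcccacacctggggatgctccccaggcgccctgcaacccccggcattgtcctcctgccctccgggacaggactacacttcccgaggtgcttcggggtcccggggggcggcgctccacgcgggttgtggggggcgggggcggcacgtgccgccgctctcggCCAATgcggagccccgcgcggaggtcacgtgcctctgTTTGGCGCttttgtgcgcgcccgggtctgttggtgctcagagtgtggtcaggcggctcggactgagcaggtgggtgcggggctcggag
TUBB, chr6:30720102-30720401, plus strand: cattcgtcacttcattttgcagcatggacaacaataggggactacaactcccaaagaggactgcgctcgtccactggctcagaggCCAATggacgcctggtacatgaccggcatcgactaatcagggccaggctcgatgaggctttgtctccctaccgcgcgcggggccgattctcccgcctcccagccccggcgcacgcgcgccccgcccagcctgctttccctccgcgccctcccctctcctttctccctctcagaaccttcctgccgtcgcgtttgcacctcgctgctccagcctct
TUBA1B, chr12:49131346-49131645, minus strand: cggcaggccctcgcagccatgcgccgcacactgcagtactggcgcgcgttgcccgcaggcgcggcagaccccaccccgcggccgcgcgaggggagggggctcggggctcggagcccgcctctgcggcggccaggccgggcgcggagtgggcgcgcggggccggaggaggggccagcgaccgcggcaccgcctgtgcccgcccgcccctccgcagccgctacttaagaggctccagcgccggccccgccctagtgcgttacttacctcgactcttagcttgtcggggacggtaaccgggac
TUBA1C, chr12:49264832-49265131, plus strand: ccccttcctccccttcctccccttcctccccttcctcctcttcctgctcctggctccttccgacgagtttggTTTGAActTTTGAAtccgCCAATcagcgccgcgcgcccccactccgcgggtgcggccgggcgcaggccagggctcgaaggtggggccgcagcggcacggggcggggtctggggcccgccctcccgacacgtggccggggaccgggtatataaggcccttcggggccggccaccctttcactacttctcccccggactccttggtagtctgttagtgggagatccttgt
The STMN1 window held a CCAAT box 75 bases and an E2F site 38 bases before the start. The TUBB window held a CCAAT box at -165, the TUBA1C window a CCAAT box at -160 and CHR elements at -178 and -170, and the TUBA1B window none of these letters. All 10 members were matched in the promoter table. The start used for STMN3 lay 658 bases from that of its canonical transcript, and its window fell after the first coding base. That window therefore does not describe the promoter of the canonical STMN3 transcript. Of the 10 windows, 7 held a CCAAT box, 2 a CHR element (TUBA1C and TUBB4B) and 1 an E2F site. Of all 35116 RefSeq windows, 34.6% held a CCAAT box, 15.2% a CHR element and 3.3% an E2F site. The matches are a description and not bound sites.

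Other genes of the microtubule system were followed in 8 lists. The lists do not cover the whole system, and MAP2 and MAPT, given above as neuronal markers, were not in them. Of the 152 listed genes, 138 were tested. At an edgeR adjusted p under 0.05, 2 rose and 3 fell, and under the replicate block 13 rose and 34 fell; 43 had an unadjusted p under 0.05. These calls were 1.45% higher and 2.17% lower of the 138 genes, beside 2.78% and 2.29% of all tested genes, and with the block 9.42% and 24.6%, beside 12.1% and 10.9%. The shares without the block were thus no larger than those over all genes, and with the block that held for the rises. The share of all tested genes with an unadjusted p under 0.05 was not counted, so nothing is read from the counts at that cut. MAPK13, a p38 kinase that can phosphorylate stathmin, rose (1871, 2346 and 2277 normalized counts in NT against 2957, 2991 and 3147; log2 fold change 0.49, SE 0.11, edgeR adjusted p = 0.0455). PFDN2, a subunit of prefoldin, which hands newly made tubulin to the CCT chaperonin, also rose (1877 ± 35.5 against 2475 ± 139, n = 3; log2 fold change 0.40, SE 0.086, edgeR adjusted p = 0.0428). MAP1A, a microtubule-associated protein, fell (788 ± 31.8 against 520 ± 11.2, n = 3; log2 fold change -0.60, SE 0.10, edgeR adjusted p = 0.0210). FIGNL1, an ATPase related to the microtubule-severing enzyme fidgetin, fell (1363 ± 140.2 against 933 ± 73.2, n = 3; log2 fold change -0.55, SE 0.12, edgeR adjusted p = 0.0426). DCLK2, a doublecortin-like kinase, fell most (162 ± 6.35 against 89.2 ± 9.61, n = 3; log2 fold change -0.86, SE 0.16, edgeR adjusted p = 0.0296). In all 5 genes the groups did not overlap, but of the 6 fits with 1 library left out each kept its call in 1, and adjusted p-values reached 0.164 for MAPK13, 0.199 for PFDN2, 0.122 for MAP1A, 0.174 for FIGNL1 and 0.151 for DCLK2 over all alternatives.

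Of the other tubulin genes, 9 of 15 were tested and none was called, with or without the block, and none had an unadjusted p under 0.05; edgeR, DESeq2 and limma-voom each called 0. Their median log2 fold change was -0.059 beside 0.023 over all genes. The most abundant, TUBG1, which encodes gamma-tubulin of the nucleating ring, had a log2 fold change of 0.022 (SE 0.16, edgeR adjusted p = 0.955). TUBA4A at 1270.3 ± 117 and TUBB4A at 932 ± 199 normalized counts per kb in NT, named after their values were seen, had higher means than TUBB2A. Of the other stathmin genes, STMN2 had no count and STMN4 1 count in NT library 1, and neither was tested.

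Among 21 genes of microtubule nucleation, 16 were lower and 5 higher, the median log2 fold change was -0.33, and none was called without the block, while 11 had an unadjusted p under 0.05. DESeq2 called 3 lower, beside 571 lower over all genes, and limma-voom 0. With the replicate block, 12 were called lower and 0 higher, which is 57.1% of the list called lower beside 10.9% of all tested genes. They include 6 of 8 subunits of augmin (HAUS), which builds microtubules on the sides of existing ones, and 3 of 5 TUBGCP subunits of the gamma-tubulin complex. These complexes and their genes were picked out after their values were seen. HAUS2 had 2370, 1952 and 2349.9 normalized counts untreated, against 1460, 1338 and 1734 with oxaliplatin (log2 fold change -0.56, SE 0.13, edgeR adjusted p = 0.0539, with the block 0.00673). TPX2, a spindle assembly factor and the most abundant of the list, had a log2 fold change of -0.28 (SE 0.13, edgeR adjusted p = 0.243, with the block 0.0255).

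Of the 23 genes of tubulin folding, 17 were higher and 6 lower, with a median log2 fold change of 0.10 beside 0.023 over all genes. The test called 1 higher (4.35%, beside 2.78% of all tested genes) and 6 with the block (26.1%, beside 12.1%). CCT3, a subunit of the chaperonin that folds tubulin and actin, averaged 36918 ± 1640.1 normalized counts in NT and 42691 ± 2165 with oxaliplatin (n = 3, log2 fold change 0.21, SE 0.086, edgeR adjusted p = 0.210, with the block 0.0257). Of the prefoldin subunits 5 of 6 were higher, 3 of them called with the block, and of the CCT subunits 7 of 8, with 2 called with the block. Of the tubulin cofactors 4 of 7 were higher, with 0 called with the block. These complexes were picked out after their values were seen, and 7313 of the 13727 genes tested were higher.

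For the mRNA decay pathway that reads the coding starts printed above, 0 of 12 genes were called by edgeR without the block, with 4 at an unadjusted p under 0.05 and 0 called by DESeq2 or limma-voom. The block called 3 lower, which is 25% of the list beside 10.9% of all tested genes. TTC5, named with SCAPER for its role, had 966, 860.5 and 914 normalized counts untreated, against 1116, 1003 and 1120.0 with oxaliplatin, with separate groups (log2 fold change 0.24, SE 0.10, edgeR adjusted p = 0.226, with the block 0.0509). SCAPER had a log2 fold change of 0.050 (SE 0.13, edgeR adjusted p = 0.860) and CNOT1, the scaffold of CCR4-NOT, 0.064 (SE 0.10, edgeR adjusted p = 0.769). CNOT6L, CNOT9 and CNOT10, chosen after their values were seen, were the 3 called lower with the block, at log2 fold changes of -0.36, -0.30 and -0.32.

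Of 13 stathmin regulators, MAPK13 was called higher in both fits and 3 further genes were called lower with the block, CDK1, CAMK4 and CDKN1B, all chosen after their values were seen except CDK1. The rise was 7.69% of the list, beside 2.78% of all tested genes without the block and 12.1% with it. The falls with the block were 23.1%, beside 10.9%. CDK1, the mitotic kinase that phosphorylates stathmin, had 8107, 6472 and 7448 normalized counts untreated, against 5591, 5325 and 6250.4 with oxaliplatin, with separate groups (log2 fold change -0.36, SE 0.11, edgeR adjusted p = 0.112, with the block 0.0204). The 21 tested genes of tubulin modification had a median of -0.046 and no call without the block, with 6 at an unadjusted p under 0.05 (DESeq2 called 1 higher and 1 lower, limma-voom 0), and 1 higher and 4 lower with it. The calls with the block were 4.76% higher and 19% lower, beside 12.1% and 10.9% of all tested genes. The most abundant gene of this list, TPGS2 of the polyglutamylase complex, had a log2 fold change of -0.046 (SE 0.090, edgeR adjusted p = 0.817). The 39 tested genes of microtubule binding and dynamics had a median of -0.032, with the 3 falls given above and, with the block, 5 higher and 12 lower. The 3 falls were 7.69% of the list, beside 2.29% of all tested genes. With the block, 12.8% of the list was called higher and 30.8% lower, beside 12.1% and 10.9%. MAPRE1, the plus-end protein EB1, was at -0.095 (SE 0.097, edgeR adjusted p = 0.629).

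**Figure D5:**
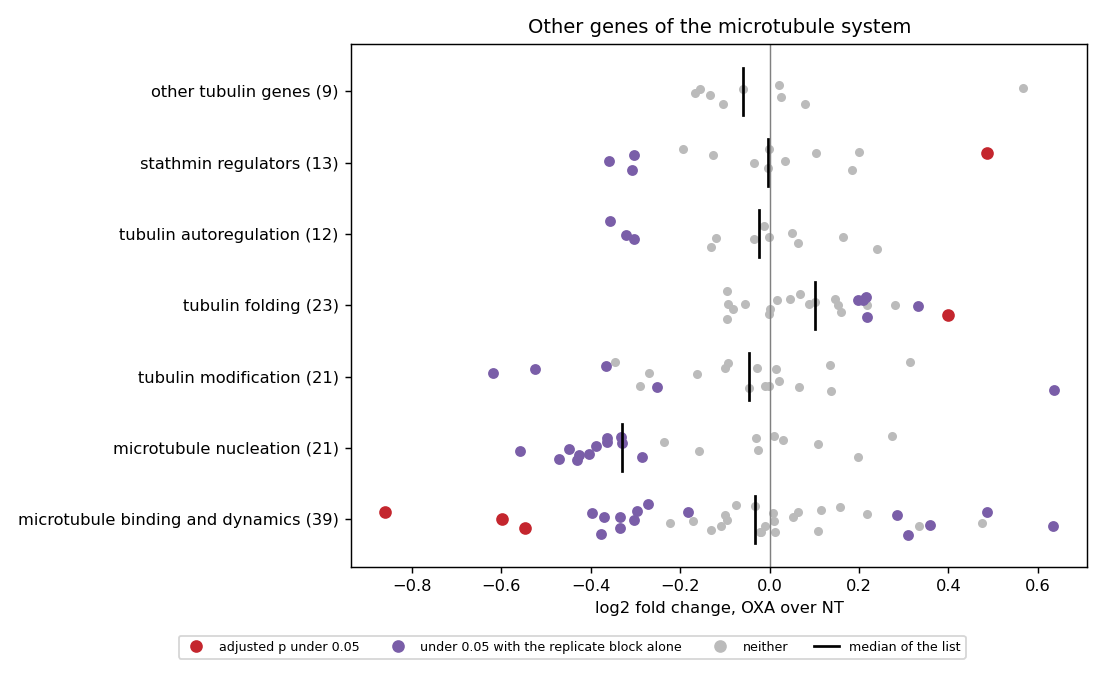
Log2 fold change of OXA over NT for each tested gene of 7 lists, with the median of the list as a black bar; red points had an adjusted p under 0.05, purple points only with the replicate block. The median of the nucleation list is at -0.33 and that of the folding list at 0.10, and DCLK2 (-0.86) lies farthest to the left.

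The genes whose pattern over the 6 libraries was most like that of STMN1, by the root mean square difference of centred log2 values among 12065 genes, were YEATS4 (0.0115), NLRP4 (0.0212) and RAD18 (0.0235). For STMN3 they were CENPX (0.0316), HYAL2 (0.0318) and PTCD1 (0.0324). No member was among the 3 nearest genes of another. MAP1A, which fell, was the third nearest gene of TUBB, at 0.0375.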

How the data were processed

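Per the labels, polyadenylated RNA from HCT116 cells was sequenced from stranded libraries, 3 for each group. The authors deposited a raw count and a normalized signal for each gene and library; the counts were whole numbers. The submitters' processing notes name Trimmomatic 0.32, STAR 2.7.5b, RSEM 1.3.3, DESeq2 2.13 and GRCh38. The study's methods give STAR for mapping and DESeq2 for normalization and testing. No role is given for RSEM, so the counts may be rounded estimates. The gene annotation and strand setting are not given in the sources used here. Genes were filtered with filterByExpr (minimum count 10, minimum total 15) and the groups were compared after TMM by the quasi-likelihood test of edgeR, adjusted by Benjamini-Hochberg over the 13727 genes tested (R 4.3.3, edgeR 4.0.16, DESeq2 1.42.0, limma 3.58.1). The SE was taken as the estimate over the root of its F statistic. The steps were tested on simulated data with changes larger than those of the members and without differences like that of NT library 1. That test does not cover changes of the members' size. At each member's lowest raw count the counting error was 0.367% to 3.53%, which covers counting error only. Since the labels do not name separate cultures, p-values measure only the spread between these libraries. Identity, GC content and shared 100-base windows came from GENCODE release 44.

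The members and the lists were chosen with earlier results of these data known. All members were named, and of each list the called genes (up to 6) and the most abundant per length; likeness was taken over genes with a mean of at least 50 normalized counts, for STMN1 and the member with the highest log2 fold change. Same-numbered libraries deviated together from their group means, with correlations over genes of 0.547, 0.542 and 0.307, against -0.467 to 0.0904 for other pairs and a limit of 0.1. The numbers come from the labels, which do not say what they stand for, and the fit blocked on the number is given where it changes a call. Alternatives were other normalization factors and filters, DESeq2, limma-voom, limma on log2 of the authors' normalized signal plus 1, the block, a fold change over 1.5 and each library left out. Amino acid sequences are not used here.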

Additional observations from a re-analysis of the deposited data

How the results depend on the processing

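Over 15 alternatives, the log2 fold changes of STMN1 (-0.60 to -0.43), TUBB (-0.62 to -0.55), TUBA1B (-0.39 to -0.30), TUBA1A (-0.33 to -0.17), TUBA1C (-0.14 to -0.016), TUBB4B (-0.41 to -0.11) and TUBB6 (0.13 to 0.26) kept their sign; STMN3 kept it in 14, TUBB2A in 13 and TUBB3 in 12. Members called lower were 2 in the reported fit, 3 with upper-quartile factors, the CPM filter or DESeq2, 4 with the replicate block, 1 with limma on the authors' values, 1 without the libraries numbered 1, 0 with a fold change over 1.5, and 0 to 3 with 1 library left out; the block called 1 higher. Genes called lower, 315 as reported, were 493 with upper-quartile factors, 479 with the CPM filter, 571 with DESeq2, 1493 with the replicate block, 187 with limma on the authors' values, 165 without the libraries numbered 1 and 198 with a fold change over 1.5. Genes called higher, 381 as reported, were 604 with DESeq2, 1664 with the block, 236 with limma on the authors' values and 219 without the libraries numbered 1. With 1 library left out they were 66 (without OXA library 1) to 623 (without NT library 1) higher and 19 to 571 lower, where the fit has 1 sample fewer. Of the other microtubule genes, 2 higher and 3 lower as reported, 6 were lower with upper-quartile factors and 6 with the CPM filter; 4 were higher and 7 lower with DESeq2, 13 and 34 with the paired fit, 1 and 1 without the libraries numbered 1, and 0 to 4 and 0 to 7 with 1 library left out. None of them was higher (0) with no filter, with limma on the authors' values or with a fold change over 1.5. TUBG1, 0.022 as reported, was -0.014 with upper-quartile factors, -0.0033 with no filter, -0.0035 with the CPM filter, -0.081 without the libraries numbered 1 and -0.12 to 0.14 with 1 library left out and CNOT1, 0.064 as reported, was -0.018 to 0.14 with 1 library left out and 0.17 with limma on the authors' values. The causes were not tested. The block changed no other call named here. Leaving out the libraries numbered 1 was chosen after the data had been seen.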
